A study of Mus musculus with 14 samples.

Results

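The genes described here are Gpr165, Bank1, Upk1b, Fscn1, Tmem204, Sema4b, Cd209a, Tmod1 and Angptl7, 9 of the 19938 genes measured, which had some of the lowest values after brain ischaemia relative to sham surgery in sorted mouse microglia. They were chosen by that change itself. Each was selected on being among the 10 lowest significant changes after ischaemia in wild-type mice (7 genes) or in mice without Toll-like receptor 4 (3 genes). Of the 9, Gpr165 alone was on both lists. The lists also held genes outside the 9, among them Gimap6, which was on both. In the genotype that chose a gene, its values and change are therefore given as a description without a test.

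The series compared TLR4-/- microglia after ischaemia and reperfusion (I/R, 3 arrays), TLR4-/- microglia after sham surgery (3 arrays), wild-type microglia after I/R (4 arrays) and wild-type microglia after sham surgery (4 arrays). All mice were C57BL/6J males, 12 to 14 weeks old. I/R was a transient occlusion of the middle cerebral artery for 15 min followed by 72 h of reperfusion, and the microglia were taken from the cortex of the operated side. Each sample was hybridised to an Affymetrix Mouse Gene 1.0 ST array, and all values below are log2 RMA values, in which a step of 1 is a doubling. Neither the sort markers nor the way the TLR4-/- allele was made is stated in the sources. Sample titles of the I/R groups carry an unexplained abbreviation, IPC, and the treatment label was followed. The labels do not state that each array came from its own animal, so p-values measure the spread between these arrays, part of which may be technical.

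Microglia are the resident macrophages of the brain. In healthy tissue they survey their surroundings with motile, actin-rich processes and carry a characteristic set of surface receptors, many of them coupled to G proteins. After injury they withdraw these processes, and the transcripts that mark the resting state are known to decrease. TLR4 is an innate immune receptor that responds to bacterial lipopolysaccharide and to signals of cell damage.

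The labelled cell type was checked against 19 measured homeostatic microglia markers. Their mean log2 level per array ran from 10.76 to 10.90 in TLR4-/- I/R and 11.24 to 11.35 in TLR4-/- sham, and from 10.75 to 11.0 in wild-type I/R and 11.26 to 11.33 in wild-type sham. All 19 exceeded background, set at the 95th percentile of 1027 olfactory receptor genes (4.67). Of all genes measured, 62.86% also exceeded it. Counts of markers above background, here and below, therefore do not by themselves show which cells were present. The Tlr4 row gave signal in both genotypes, from 7.62 to 8.40 in TLR4-/- I/R and 8.16 to 8.47 in TLR4-/- sham, and from 8.14 to 8.48 in wild-type I/R and 8.57 to 8.92 in wild-type sham. Which part of Tlr4 was removed is not given, and the row is no check on the labelled genotypes. The 3 TLR4-/- I/R arrays and the 4 wild-type sham arrays each correlated, on average, slightly more with the other genotype's arrays of the same surgery than with their own group. The gap was widest for TLR4-/- I/R array D (mean r 0.9908 with wild-type I/R, 0.9874 with its group) and wild-type sham array C (0.9894 with TLR4-/- sham, 0.9845 with its group). For each gene named here whose call changed without either of these 2 arrays, the value without it is given.

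All 9 genes are protein-coding and lie on 8 chromosomes: Bank1 on chromosome 3, Tmod1 and Angptl7 on 4, Fscn1 on 5, Sema4b on 7, Cd209a on 8, Upk1b on 16, Tmem204 on 17 and Gpr165 on X. RefSeq promoters of build GRCm38.p6 were matched for 7 genes, with 8 promoters because Sema4b has 2 starts. No promoter was matched for Upk1b and Tmem204. The 100 bases before the gene start are shown for Gpr165, which had the lowest changes, for Fscn1, which also has a TATA box close to its start, and for Tmod1, as a promoter with GC boxes and no TATA box. Capitals mark the TATA box (TATAAA), the CCAAT box (CCAAT) and the GC box (GGGCGG) on either strand.
Gpr165: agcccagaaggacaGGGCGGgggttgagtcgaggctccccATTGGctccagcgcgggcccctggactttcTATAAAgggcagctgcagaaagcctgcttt
Fscn1: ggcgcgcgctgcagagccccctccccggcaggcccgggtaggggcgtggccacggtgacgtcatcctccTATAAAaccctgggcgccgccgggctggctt
Tmod1: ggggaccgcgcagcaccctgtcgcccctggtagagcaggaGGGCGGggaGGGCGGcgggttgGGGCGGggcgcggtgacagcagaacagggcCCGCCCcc
These lie on the plus strand at chrX:96713368-96713467 (Gpr165), chr5:142960255-142960354 (Fscn1) and chr4:46039122-46039221 (Tmod1).

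In the Gpr165 promoter TATAAA began at position -30 from the start, the reverse complement of CCAAT at -60 and GGGCGG at -86. In Fscn1 TATAAA began at -31. Motifs were searched on both strands over the 300 bases held for each promoter. TATAAA was found in 4 of the 8 promoters (Gpr165, Fscn1, Bank1 and Cd209a), against 13.6% of all 32851 promoters; in Bank1 and Cd209a it lay further out, at -234 (with a match on the other strand at -236) and -184. GGGCGG, the GC box, was found in 4 of the 8 (Gpr165, Tmod1 and both of Sema4b), against 35.7% of all. CCAAT was in 1 (Gpr165), against 37.4%. Of 4 motifs bound by factors active in macrophages, the PU.1-type GAGGAAGT and the AP-1 motif TGANTCA had no match in these windows (3.2% and 7.81% of all promoters). The interferon-stimulated response element core GAAANNGAA matched in Bank1 and Angptl7 (8.56% of all), and the E-box CACGTG in 1 promoter of Sema4b (7.15%). The GC content of the 8 windows ran from 44.0% in Cd209a to 71.7% in a Sema4b promoter, with a median of 52.7% over all promoters. These matches describe the letters only and were not tested.

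Gpr165 encodes an orphan G protein-coupled receptor. It had the lowest change of all named genes in TLR4-/- microglia and the second lowest in wild type, and as both genotypes chose it, no test is given. Its log2 values were 8.06, 7.72 and 7.74 in TLR4-/- I/R, against 9.85, 9.38 and 9.82 in TLR4-/- sham. In wild type they were 7.78, 8.44, 8.22 and 8.35 after I/R, against 10.04, 9.72, 10.02 and 9.48 after sham. No I/R array reached the level of any sham array, and the I/R ranges of both genotypes overlapped. The log2 change was -1.84 in TLR4-/- (SE 0.19, 3.59-fold lower) and -1.62 in wild type (SE 0.17, 3.06-fold lower). In RNA from a sorted population, fewer cells that carry a transcript and less of it per cell cannot be told apart.

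**Figure D1:**
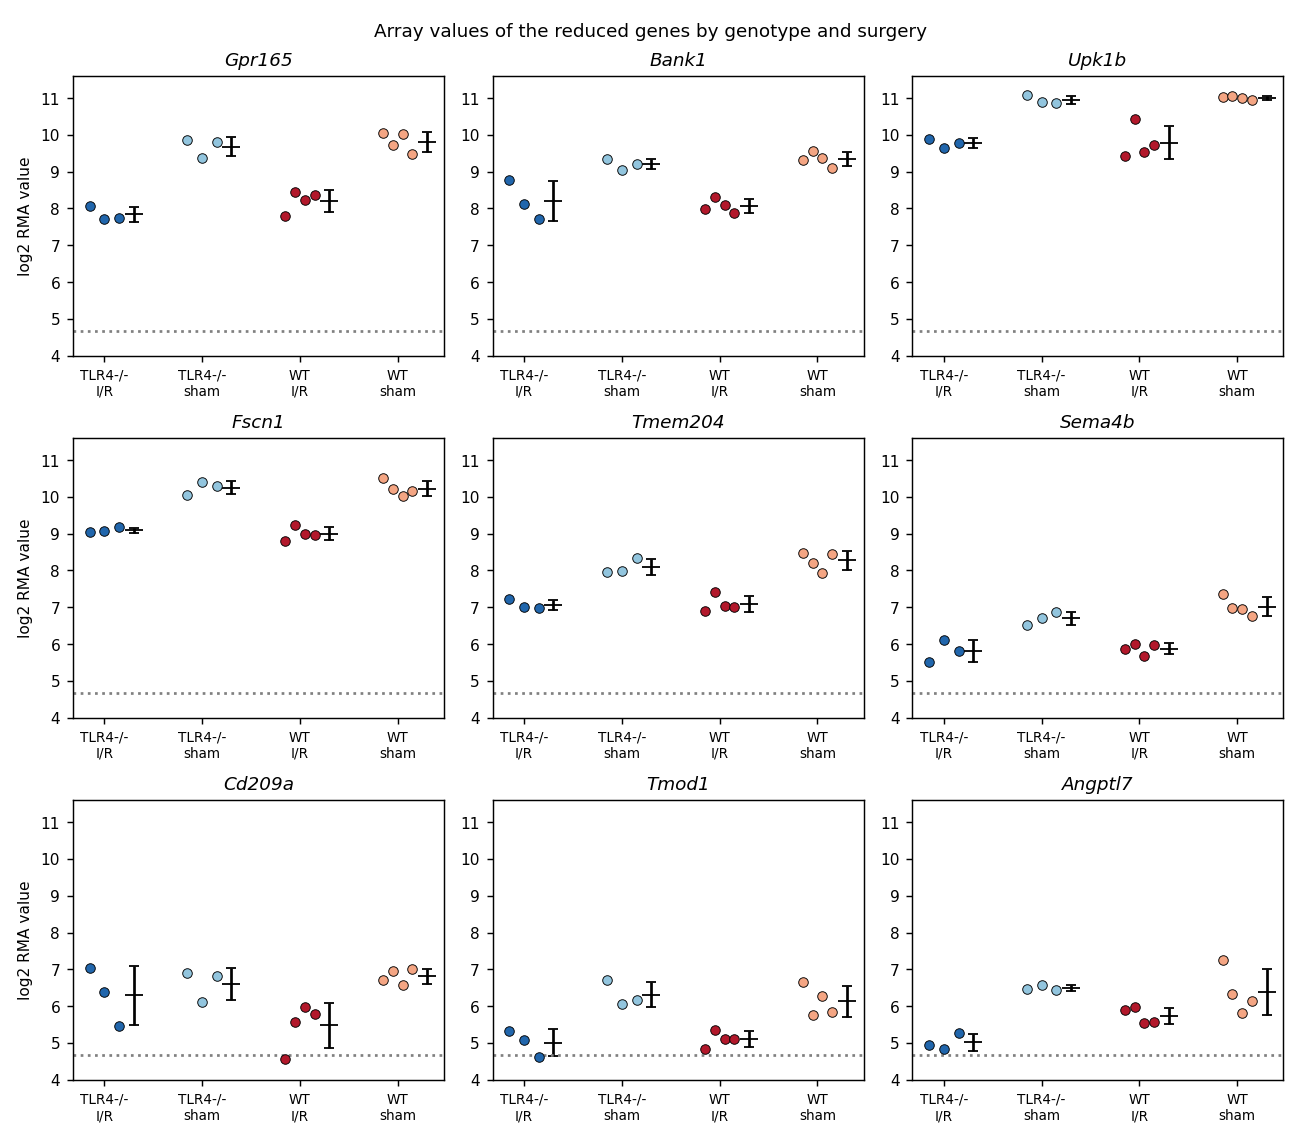
Log2 RMA values of the 9 genes (vertical axis) on each array, by group (horizontal axis); points are arrays, the cross bar and whiskers beside them the group mean and SD, and the dotted line the olfactory background of 4.67. In Gpr165, Bank1, Upk1b, Fscn1, Tmem204, Sema4b and Tmod1 the I/R arrays lie below the sham arrays in both genotypes, while the groups overlap for Cd209a in TLR4-/- and for Angptl7 in wild type.

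Of the 6 genes listed from wild type alone, 5 also fell in TLR4-/- microglia, where 3.13% of all 19938 genes were called lower (limma, adjusted p under 0.05). Of the 2 listed from TLR4-/- alone, 1 also fell in wild type, where 3.63% of all genes were called lower. These arrays did not enter the changes that ranked the genes, but they did enter the shared estimate of spread behind the calls. The list was also put together with both genotypes' results known, so the counts here and the p-values below are no independent support. The share over all genes is not the share to expect among genes chosen for a fall in the other genotype. Of the genes left out of the 9, Klrd1, lowest in wild type, was not called in TLR4-/- (limma adjusted p = 0.0882), while Gimap6 was on both lists.

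Among the surface proteins, Upk1b encodes a tetraspanin best known from the urothelium. Its values were 9.90, 9.65 and 9.79 in TLR4-/- I/R, against 11.07, 10.89 and 10.86 in TLR4-/- sham. It fell by 1.16 on the log2 scale in TLR4-/- (SE 0.19, limma adjusted p = 0.000795). In wild type, which chose it, the I/R arrays gave 9.44, 10.43, 9.53 and 9.73 and the sham arrays 11.03, 11.05, 10.99 and 10.95, a change of -1.22 (SE 0.16). Wild-type I/R array B stood above the other I/R arrays but below every sham array, and the 4 wild-type sham arrays had the narrowest spread of any group of the 9 genes (SD 0.05).

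Tmem204 encodes a claudin-like membrane protein known from endothelial cells. TLR4-/- I/R arrays gave 7.23, 7.01 and 6.99, against 7.96, 7.98 and 8.35 for TLR4-/- sham. The fall in TLR4-/- was 2.03-fold (log2 change -1.02, SE 0.17, limma adjusted p = 0.000793). Wild-type I/R arrays gave 6.90, 7.41, 7.03 and 7.02 and wild-type sham arrays 8.49, 8.21, 7.95 and 8.45, a change of -1.18 (SE 0.14).

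Of 11 endothelial markers, 5 had a mean above background, and 2 were called lower in TLR4-/-. They were Pecam1 (log2 change -1.09, limma adjusted p = 0.000883) and Eng (-0.92, adjusted p = 0.00658), adhesion and co-receptor proteins that some myeloid cells also carry. In wild type the same 2 were lower and Cdh5 and Flt1 were higher (log2 changes 0.67 and 0.42), Flt1 no longer so without sham array C (limma adjusted p = 0.0696). The mean level of the list ran from 4.79 to 4.81 in TLR4-/- I/R and 4.85 to 5.01 in TLR4-/- sham, and from 4.65 to 4.78 in wild-type I/R and 4.70 to 4.85 in wild-type sham. Cldn5, Pecam1, Cdh5, Kdr and Eng had means above background, and Tek, Tie1, Flt1, Emcn, Esam and Slco1a4 below it. Cldn5, the tight junction protein of brain vessels, had mean log2 values of 5.24 in TLR4-/- I/R and 5.45 in TLR4-/- sham, and of 4.95 in wild-type I/R and 4.98 in wild-type sham. The part of endothelial RNA in the Tmem204 change was not tested.

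Sema4b encodes a transmembrane class 4 semaphorin, a ligand that signals to plexins on neighbouring cells. Its values were 5.52, 6.10 and 5.82 in TLR4-/- I/R, against 6.52, 6.72 and 6.88 in TLR4-/- sham. The highest I/R array was still below the lowest sham array, and the fall was 1.86-fold (log2 change -0.89, SE 0.17, limma adjusted p = 0.0028). In wild type the I/R values were 5.85, 5.99, 5.67 and 5.97, against sham values of 7.36, 6.97, 6.96 and 6.76, a change of -1.14 (SE 0.15).

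Of the 5 other class 4 semaphorins measured, Sema4g fell in wild type (log2 change -0.81, SE 0.17, limma adjusted p = 0.00455) and was not called in TLR4-/- (-0.54, SE 0.19, adjusted p = 0.11). Sema4a, Sema4c, Sema4d and Sema4f were not called in either genotype (Sema4c passed in wild type without TLR4-/- I/R array D, adjusted p = 0.0478), with changes from -0.29 to 0.13 in TLR4-/- and -0.40 to 0.10 in wild type. Among 12 semaphorin receptors, 2 were called higher and 1 lower in TLR4-/-, and 3 higher and 1 lower in wild type. Plxna4, a plexin of class A, was the one that fell, by 0.96 in TLR4-/- and by 0.99 in wild type (limma adjusted p = 0.00129 and 0.000184). Plxnc1 rose by 1.02 in TLR4-/- and 1.44 in wild type (limma adjusted p = 0.0185 and 0.000305), as did Met, by 0.55 and 0.53 (adjusted p = 0.0384 and 0.0176), from a mean level below background. Nrp2, a neuropilin, was called higher in wild type alone (0.55, adjusted p = 0.0116) and had a change of 0.49 in TLR4-/- (adjusted p = 0.0568). Without TLR4-/- I/R array D, Met was not called in TLR4-/- (adjusted p = 0.0526) and Nrp2 was (adjusted p = 0.0122). The class B plexins Plxnb1, Plxnb2 and Plxnb3, and Plxnd1, were not called in either genotype. Their changes ran from -0.20 to 0.15 in TLR4-/- and -0.12 to 0.28 in wild type. Which of the listed receptors Sema4b signals through was not tested.

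Cd209a encodes a C-type lectin, the mouse counterpart of DC-SIGN, that binds sugars on pathogens and is used as a marker of monocyte-derived dendritic cells. It had the widest spread of the 9 genes in the I/R groups. TLR4-/- I/R arrays gave 7.04, 6.37 and 5.46 and TLR4-/- sham arrays 6.89, 6.11 and 6.82, so the groups overlapped. The change in TLR4-/- was -0.32 (SE 0.36, limma adjusted p = 0.71). In wild type, which chose it, the I/R arrays gave 4.58, 5.57, 5.98 and 5.78, against 6.71, 6.96, 6.56 and 7.00 for sham, a change of -1.33 (SE 0.31). Wild-type I/R array A was below the olfactory background of 4.67, and without it the wild-type change was -1.03. The change in TLR4-/- was -0.69 without I/R array B and 0.10 without I/R array D, so its direction rested on single arrays.

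The Cd209 genes are close paralogues, and hybridisation of one gene's RNA to another's probes was not tested. Cd209b fell in wild type (log2 change -0.81, SE 0.19, limma adjusted p = 0.00886) and had a change of -0.07 in TLR4-/- (SE 0.21, adjusted p = 0.916). Cd209f, a marker of macrophages at the brain's borders, fell in TLR4-/- (-1.31, SE 0.38, adjusted p = 0.0413) and just missed the threshold in wild type (-1.05, SE 0.33, adjusted p = 0.051). Without TLR4-/- I/R array D, Cd209f was not called in TLR4-/- (-1.08, adjusted p = 0.156). Cd209g had changes of -0.39 in TLR4-/- and -0.33 in wild type (adjusted p = 0.0724 and 0.0736), and was called in both without wild-type sham array C (adjusted p = 0.036 and 0.0171). Cd209c, Cd209d and Cd209e had means below background and were not called. Differences between the genotypes in these changes are not shown by a call in one genotype alone.

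Of 11 dendritic cell markers, 8 had means above background, beside 62.86% of all genes. Xcr1 and Clec9a, which define conventional type 1 cells, had means below it. Itgax was called higher in TLR4-/- (log2 change 2.33, limma adjusted p = 1.32e-05) and in wild type (1.59, adjusted p = 0.000126), and Cd83 was called higher in wild type (0.81, adjusted p = 0.029, and 0.0512 without sham array C). Mgl2, a lectin of monocyte-derived and type 2 dendritic cells, had a change of -0.22 in TLR4-/- (adjusted p = 0.407) and fell by 1.05 in wild type (adjusted p = 1.18e-05). Klrd1, a receptor of NK cells that some dendritic cells carry, had a change of -1.03 in TLR4-/- (adjusted p = 0.0882) and fell by 1.63 in wild type (adjusted p = 0.00187). Flt3, the growth factor receptor of dendritic cells, was not called, with changes of 0.06 in TLR4-/- and 0.22 in wild type. The list mean ran from 5.24 to 5.29 in TLR4-/- I/R and 5.18 to 5.25 in TLR4-/- sham, and from 5.06 to 5.26 in wild-type I/R and 5.18 to 5.39 in wild-type sham. Border macrophage markers, 11 of 11 above background, held Siglec1, called higher in TLR4-/- and in wild type (1.13 and 1.27), Folr2, called higher in wild type (0.99), and Cd209f as above. Their list mean ran from 6.93 to 7.28 in TLR4-/- I/R and 6.61 to 7.28 in TLR4-/- sham, and from 7.34 to 7.89 in wild-type I/R and 7.19 to 7.58 in wild-type sham. The other border macrophage markers were not called, and the list had median changes of -0.26 in TLR4-/- and 0.13 in wild type. Of 9 monocyte markers, 5 were called higher in TLR4-/- and 6 in wild type, with median changes of 1.36 and 1.27. Vim, Cd44, S100a4 and Ms4a4c were among those called in both. Ccr2, Itga4 and F10 were not called in either, and Ccr2 had changes of -0.22 in TLR4-/- and 0.41 in wild type. The monocyte list mean was 6.09 to 6.23 in TLR4-/- I/R and 4.62 to 4.82 in TLR4-/- sham, and 6.13 to 6.66 in wild-type I/R and 4.78 to 4.98 in wild-type sham. The part of these cells in the Cd209a values was not tested.

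Bank1 encodes a scaffold protein with ankyrin repeats, best known from B cells, where it links the kinase Lyn to the inositol trisphosphate receptor. Its TLR4-/- values were 8.77, 8.11 and 7.70 after I/R and 9.34, 9.06 and 9.22 after sham. I/R array B lay closest to the sham range without entering it, and Bank1 fell 2.01-fold in TLR4-/- (log2 change -1.01, SE 0.21, limma adjusted p = 0.00514). In wild type, which chose it, I/R arrays gave 7.98, 8.31, 8.09 and 7.88, against sham arrays at 9.32, 9.57, 9.36 and 9.09, a change of -1.27 (SE 0.18).

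Most B cell markers were below background. Of 9 measured, Cd79a, Ms4a1, Ebf1, Fcrla, Blk, Cr2 and Fcer2a had means below 4.67, and none of the 9 was called in either genotype (limma). Cd79b, which had a mean of 8.26, and Pax5 were above background, with changes of 0.24 and -0.11 in TLR4-/- and 0.09 and -0.10 in wild type. The list mean ran from 4.18 to 4.27 in TLR4-/- I/R and 4.21 to 4.33 in TLR4-/- sham, and from 4.15 to 4.23 in wild-type I/R and 4.12 to 4.30 in wild-type sham.

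Among 17 adaptors and kinases that act with the B cell receptor, many of them used by myeloid cells as well, 2 were called higher and 5 lower in TLR4-/-, and 3 higher and 3 lower in wild type. Dapp1, a phosphoinositide-binding adaptor, fell by 0.84 in TLR4-/- and 0.66 in wild type (limma adjusted p = 0.00443 and 0.00704). Inpp5d, the phosphatase SHIP1, fell by 0.46 and 0.35 (adjusted p = 0.0187 and 0.032), and the kinase Syk fell by 0.53 and 0.47 (adjusted p = 0.0481 and 0.0357), in the same order. Itpr2, an inositol trisphosphate receptor, fell by 0.67 in TLR4-/- (adjusted p = 0.0266) and had a change of -0.42 in wild type (adjusted p = 0.0981). Blnk, the B cell linker adaptor, fell by 0.43 in TLR4-/- (adjusted p = 0.0371) and had a change of -0.21 in wild type (adjusted p = 0.254). Itpr2 was not called in TLR4-/- without I/R array D (adjusted p = 0.0755). In wild type, Syk and Inpp5d were not called without sham array C (adjusted p = 0.112 and 0.0946), which left 1 of the 17 called lower there. In the other direction, the inhibitory receptors Cd72 and Cd22 rose, Cd72 by 4.48 in TLR4-/- and 4.11 in wild type and Cd22 by 0.74 and 0.67.

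Fscn1 encodes fascin, which bundles actin filaments into the stiff cores of filopodia. It had I/R values of 9.05, 9.06 and 9.17 in TLR4-/-, the tightest I/R group of the 9 genes (SD 0.07), against sham values of 10.06, 10.40 and 10.30. It fell 2.23-fold in TLR4-/- (log2 change -1.16, SE 0.15, limma adjusted p = 5.42e-05), the smallest p among the 6 genes tested there. The wild-type arrays gave 8.80, 9.25, 8.999 and 8.96 after I/R, against 10.51, 10.21, 10.02 and 10.16 after sham, a change of -1.22 (SE 0.13). The wild-type and TLR4-/- changes thus differed by less than their standard errors.

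Tmod1 encodes tropomodulin 1, which caps the pointed ends of actin filaments and is abundant in red cells and muscle. TLR4-/-, which chose it, gave 5.33, 5.08 and 4.61 after I/R and 6.71, 6.07 and 6.17 after sham, a change of -1.31 (SE 0.24). Wild-type values were 4.84, 5.35, 5.12 and 5.11 after I/R and 6.66, 5.75, 6.27 and 5.83 after sham. Tmod1 fell 2.04-fold in wild type (log2 change -1.02, SE 0.21, limma adjusted p = 0.00346). The I/R means, 5.01 in TLR4-/- and 5.10 in wild type, were close to the background of 4.67, and 1 TLR4-/- I/R array lay below it.

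Tmod1 is the one of the 9 measured by 2 array rows, and the rows disagreed. The second, dimmer row had means of 5.36 in TLR4-/- I/R and 5.43 in TLR4-/- sham, and of 5.17 in wild-type I/R and 5.14 in wild-type sham. It did not show the fall of the brighter row. Averaging both rows gave changes of -0.69 in TLR4-/- and -0.50 in wild type (limma adjusted p = 0.025 in wild type). Which transcripts the rows cover is not stated in the sources.

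No relative of these 2 actin genes was called. The other measured tropomodulins and leiomodins were Tmod2, Tmod3, Tmod4, Lmod1, Lmod2 and Lmod3, with changes from -0.19 to 0.20 in TLR4-/- and -0.36 to 0.30 in wild type. Tmod3, with a mean of 9.73, had changes of 0.20 in TLR4-/- and 0.15 in wild type. Fscn2 and Fscn3 had changes of 0.24 and 0.11 in TLR4-/- and of -0.09 and -0.02 in wild type, without a call. Of 19 other genes for bundling, capping and binding actin filaments, none was called lower, 4 were called higher in TLR4-/- and 6 in wild type. The 4 were the capping protein Capg (log2 change 2.44 in TLR4-/- and 2.21 in wild type), the tropomyosins Tpm4 (1.12 and 1.22) and Tpm2 (0.83 and 0.99), and the crosslinker filamin A, Flna (0.58 and 0.70). Their limma adjusted p-values ran from 2.04e-05 to 0.00863 in TLR4-/-. Erythroid markers, 3 measured and none called by limma in either genotype, had list means of 4.49 to 4.65 in TLR4-/- I/R and 4.42 to 4.72 in TLR4-/- sham, and of 4.37 to 4.48 in wild-type I/R and 4.45 to 4.60 in wild-type sham.

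Angptl7 encodes a secreted angiopoietin-like protein, known from the eye and from connective tissue. TLR4-/-, which chose it, gave 4.94, 4.84 and 5.28 after I/R and 6.45, 6.57 and 6.45 after sham, a change of -1.47 (SE 0.26, 2.77-fold lower). Wild-type I/R arrays gave 5.89, 5.97, 5.54 and 5.56 and wild-type sham arrays 7.25, 6.34, 5.81 and 6.14. The wild-type groups overlapped, since sham array C (5.81) lay below I/R arrays A and B, and the change of -0.64 (SE 0.22) was not called (limma adjusted p = 0.0833). It was -0.83 without sham array C, where it was called (adjusted p = 0.0204), and -0.36 without sham array A, where it was not.

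Angptl1, Angptl4, Angptl6 and Angptl8 were also measured and not called. Their changes ran from -0.29 to 0.50 in TLR4-/- and from -0.57 to 0.25 in wild type. The other measured uroplakins, grouped with Upk1b by name, behaved likewise: Upk1a, Upk2, Upk3a and Upk3b had changes from -0.18 to -0.02 in TLR4-/- and -0.31 to 0.01 in wild type, with no call. Markers of meningeal fibroblasts and mesothelium, tissues in which connective-tissue genes could originate, numbered 11, of which 7 exceeded background and none was called by limma in either genotype. Their list mean ran from 4.65 to 4.74 in TLR4-/- I/R and 4.73 to 4.75 in TLR4-/- sham, and from 4.50 to 4.63 in wild-type I/R and 4.64 to 4.74 in wild-type sham, and Lum, a fibroblast matrix gene, had a mean of 2.43. Their part in the Angptl7 and Upk1b changes was not tested.

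**Figure D2:**
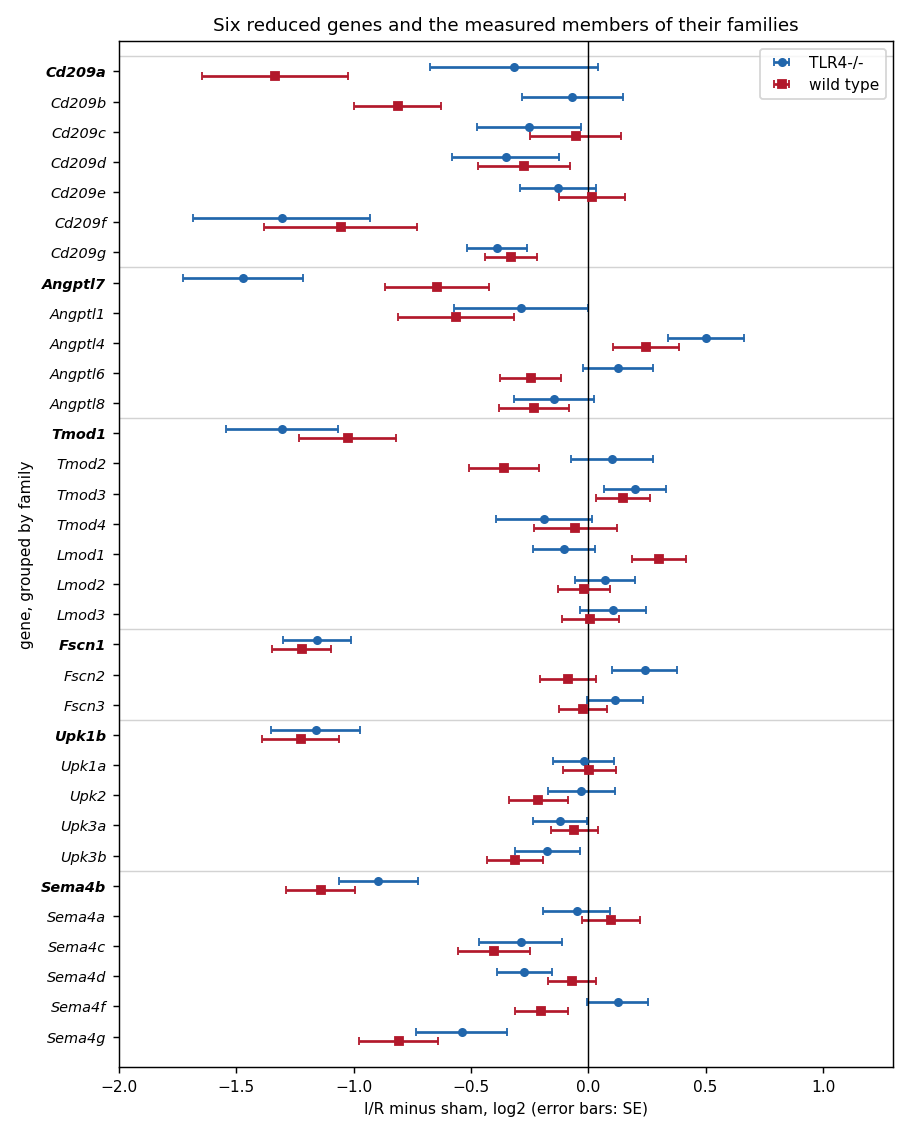
I/R minus sham log2 change (horizontal axis, error bars SE) of 6 of the genes, in bold, and the measured members of their gene families (vertical axis), in TLR4-/- (circles, above) and wild type (squares, below). The uroplakins are grouped by shared name. Among the relatives, Cd209b and Sema4g were called lower in wild type and Cd209f in TLR4-/-; the other relatives were not called.

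The tested falls were recomputed without the array that stood closest to the other genotype. Without TLR4-/- I/R array D, the TLR4-/- changes were -1.17 for Upk1b, -0.98 for Tmem204, -0.90 for Sema4b, -0.76 for Bank1 and -1.19 for Fscn1, all 5 still called (limma adjusted p from 0.000285 for Fscn1 to 0.0266 for Bank1). Without wild-type sham array C, the wild-type change of Tmod1 was -0.98 (adjusted p = 0.0119). As descriptions, Gpr165 changed by -1.79 in TLR4-/- without array D and by -1.54 in wild type without array C.

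The genes just inside and just outside the threshold of the lists had nearly equal changes. In TLR4-/- the genes ranked 9 to 12, none of them among the 9, were Gimap6 (-1.26), Cd80 (-1.25), Hbegf (-1.24) and Gadd45g (-1.20). In wild type Tmem204 (-1.18) and Sema4b (-1.14) ranked 9 and 10, and Ccdc162 (-1.14) and Slc39a12 (-1.09) ranked 11 and 12. The rank threshold therefore separated values that differed by less than their SE of 0.14 to 0.27 in wild type. Rank alone did not make the 9: Klrd1 (-1.63) and Gimap6 (-1.48) ranked 1 and 3 in wild type and are not among them.

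**Figure D3:**
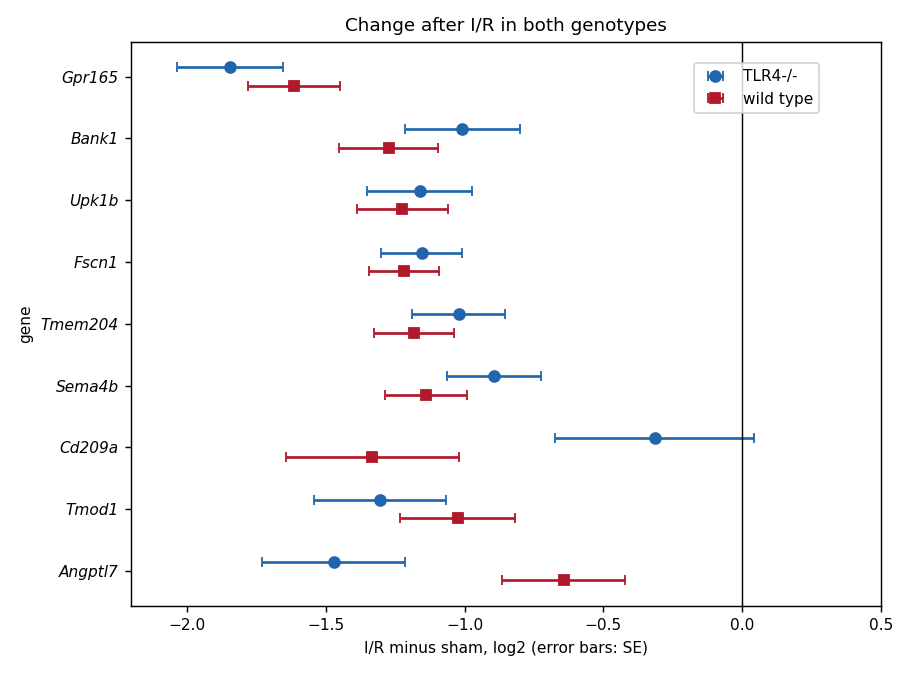
Log2 change after I/R (horizontal axis, I/R minus sham, error bars SE) of each gene (vertical axis) in TLR4-/- (circles, above) and wild type (squares, below). The 2 estimates lie close together except for Cd209a (-0.32 in TLR4-/- and -1.33 in wild type) and Angptl7 (-1.47 and -0.64).

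The design also asks what TLR4 contributes. Each genotype had equal numbers of arrays in both surgeries. With equal spread as well, a gene's level averaged over both surgeries is uncorrelated with the I/R minus sham differences that chose the genes. The spread was not equal for every gene: in wild type Cd209a had an SD of 0.62 after I/R and 0.21 after sham. For such genes the choice can also move the average. None of the 9 was called between TLR4-/- and wild type on this average (0 of 9 by limma), where 0.0251% of all genes, 5 in number, were called. At an unadjusted p under 0.05 it was also 0 of 9, beside 2050 of all 19938 genes. At such shares 0 of 9 says little about these genes. The differences, TLR4-/- minus wild type, ran from -0.30 for Angptl7 (SE 0.17, limma adjusted p = 0.531) to 0.30 for Cd209a (SE 0.24, limma adjusted p = 0.639). Gpr165 had a difference of -0.25 (SE 0.13, limma adjusted p = 0.512), and the exact permutation of genotype within surgery, two-sided, gave p = 0.103, the lowest of the 9 computed. For Angptl7 and Cd209a the exact p was 0.21 and 0.376. The smallest p these 1225 splits allow is 0.000816. Single arrays moved both end values by over 1.5 times: Cd209a had a difference of 0.12 without TLR4-/- I/R array B and 0.51 without array D, and Angptl7 of -0.16 without wild-type sham array A, none of them called.

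On the same average Sema4b had a difference of -0.18 (SE 0.11) and Tmem204 of -0.10 (SE 0.11). Bank1, Upk1b, Fscn1 and Tmod1 had differences between -0.03 and 0.06, with SE from 0.10 to 0.16; without TLR4-/- I/R array D the differences were 0.12 for Bank1 and 0.15 for Tmod1. With 3 or 4 arrays per group a difference above its SE could also be missed, as for Gpr165 (-0.25, SE 0.13, limma adjusted p = 0.512). A missed threshold does not show that the genotypes had equal levels.

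Split by surgery, the differences share arrays with the choice of genes and are given as values. After I/R, TLR4-/- minus wild type was 0.81 for Cd209a (SE 0.34), -0.72 for Angptl7 (SE 0.24) and -0.36 for Gpr165 (SE 0.18), and between -0.09 and 0.13 for the other 6. After sham it ran from -0.30 for Sema4b (SE 0.16) to 0.19 for Tmod1 (SE 0.22). The wild-type change minus the TLR4-/- change was -1.02 for Cd209a (SE 0.47), 0.83 for Angptl7 (SE 0.34) and 0.23 for Gpr165 (SE 0.25). Without TLR4-/- I/R array D, the difference after I/R was 1.23 for Cd209a (SE 0.32), 0.38 for Bank1 (SE 0.18) and 0.10 for Tmod1 (SE 0.24). The difference of changes was then -1.43 for Cd209a (SE 0.43), -0.51 for Bank1 (SE 0.24) and 0.08 for Tmod1 (SE 0.32). Without wild-type sham array C, the difference after sham was -0.08 for Angptl7, against 0.11 with all arrays, and -0.06 for Gpr165, against -0.13. Cd209a was listed from wild type and Angptl7 from TLR4-/-, so a larger change in the listing genotype was favoured by the choice. No gene of the 19938 was called for this difference of changes (0 by limma, 762 at an unadjusted p under 0.05).

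**Figure D4:**
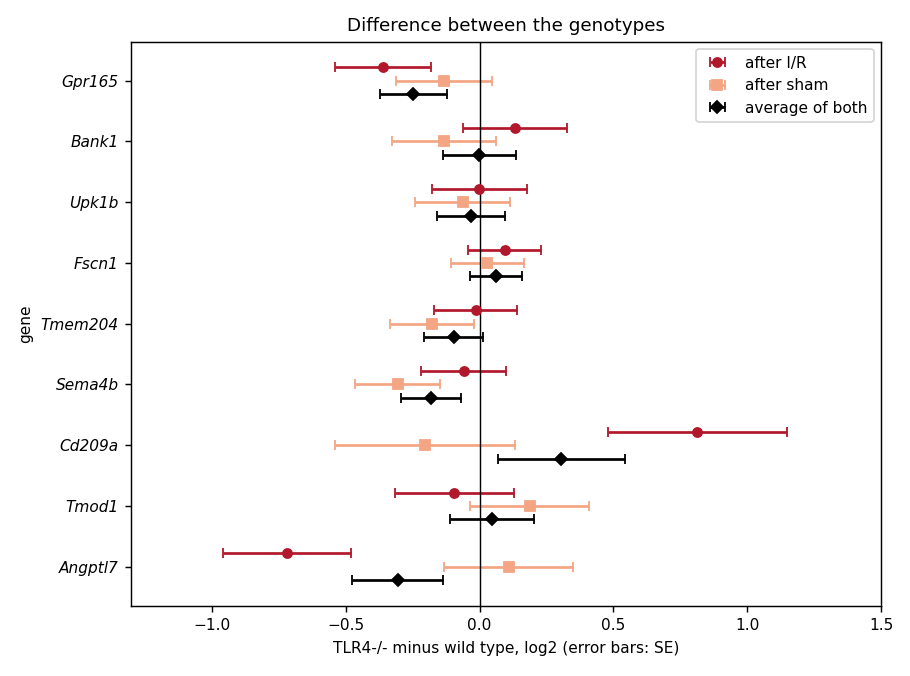
TLR4-/- minus wild-type log2 difference (horizontal axis, error bars SE) of each gene (vertical axis) after I/R, after sham and averaged over both. The average lies between -0.30 (Angptl7) and 0.30 (Cd209a), and Cd209a after I/R (0.81) and Angptl7 after I/R (-0.72) stand farthest from 0.

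Some transcripts that mark resting microglia fell after I/R too. Of 19 homeostatic markers, 11 were called lower in TLR4-/- and 14 in wild type, with medians of -0.45 in each, and none was called higher. The count was 7 in TLR4-/- without I/R array D and 11 in wild type without sham array C. Adgrg1, an adhesion receptor coupled to G proteins, fell by 1.01 in TLR4-/- and 1.00 in wild type (limma adjusted p = 0.000783 and 0.000168). P2ry13, a receptor for ADP, fell by 0.52 in TLR4-/- and 0.58 in wild type (limma adjusted p = 0.0104 and 0.00115), and the adhesion ligand Selplg by 0.60 and 0.45 (limma adjusted p = 0.00215 and 0.00517).

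Gpr165 was set beside 24 other G protein-coupled receptors of microglia. Of these, 3 were called higher and 7 lower in TLR4-/-, and 3 higher and 9 lower in wild type. Without TLR4-/- I/R array D, 2 were called lower in TLR4-/-, and P2ry13 was not among them (adjusted p = 0.0523). Without wild-type sham array C, 7 were called lower and 2 higher in wild type, and Gpr84 was not called there (0.50, adjusted p = 0.0626). Besides Adgrg1 and P2ry13, Lpar6, a receptor for lysophosphatidic acid, fell by 0.69 in TLR4-/- and 0.63 in wild type (limma adjusted p = 0.00868 and 0.00483). P2ry14, a receptor for UDP-glucose whose mean lay below background, rose by 0.87 in TLR4-/- and 0.77 in wild type (limma adjusted p = 0.00592 and 0.00413). Gpr65, a proton sensor, rose by 2.21 in TLR4-/- and 2.78 in wild type (limma adjusted p = 5.59e-06 and 3.84e-08), and Gpr84, a receptor for medium-chain fatty acids, by 1.24 and 0.72 (limma adjusted p = 0.00166 and 0.0247).

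The genes whose log2 values followed Gpr165 most closely over the 14 arrays were Rtn1 (r = 0.972), B4galt4 (0.956), Slc9a9 (0.956), Pip4k2a (0.955) and Il6st (0.955), out of 12532 genes above background. The arrays form an I/R and a sham group, and this separation enters every such r. Their changes were smaller, from -0.76 to -0.49 in TLR4-/- and -0.68 to -0.53 in wild type. With the group means taken off, the closest were Ppp2r5c (r = 0.942), Wdr44 (0.938), Parp9 (0.872), Tmtc3 (0.854) and Ttbk1 (0.851), a different set. For the other genes the single closest by log2 values was Agmo for Upk1b (r = 0.984), Sh2b3 for Fscn1 (0.975), Pip4k2a for Bank1 (0.972), B4galt4 for Tmem204 (0.967), Zfp691 for Sema4b (0.963), Zswim6 for Tmod1 (0.953), Actr8 for Angptl7 (0.931) and Meg3 for Cd209a (0.892). These are descriptions over arrays that share a normalization.

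Within groups the 9 genes varied together in part. Over the 36 pairs, the correlation of deviations from the group means had a median of 0.29, with 30 pairs above 0, beside a median of 0.01 and quartiles of -0.24 and 0.26 over all pairs of genes above background. Gpr165 and Tmod1 gave the highest value (r = 0.76), followed by Fscn1 with Angptl7 (0.71), Fscn1 with Tmem204 (0.67) and Bank1 with Cd209a (0.63). Cd209a ran against Angptl7 (-0.31) and Sema4b (-0.29), and Bank1 against Sema4b (-0.26). The 14 arrays and 4 fitted means are common to all pairs, and no test was made.

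**Figure D5:**
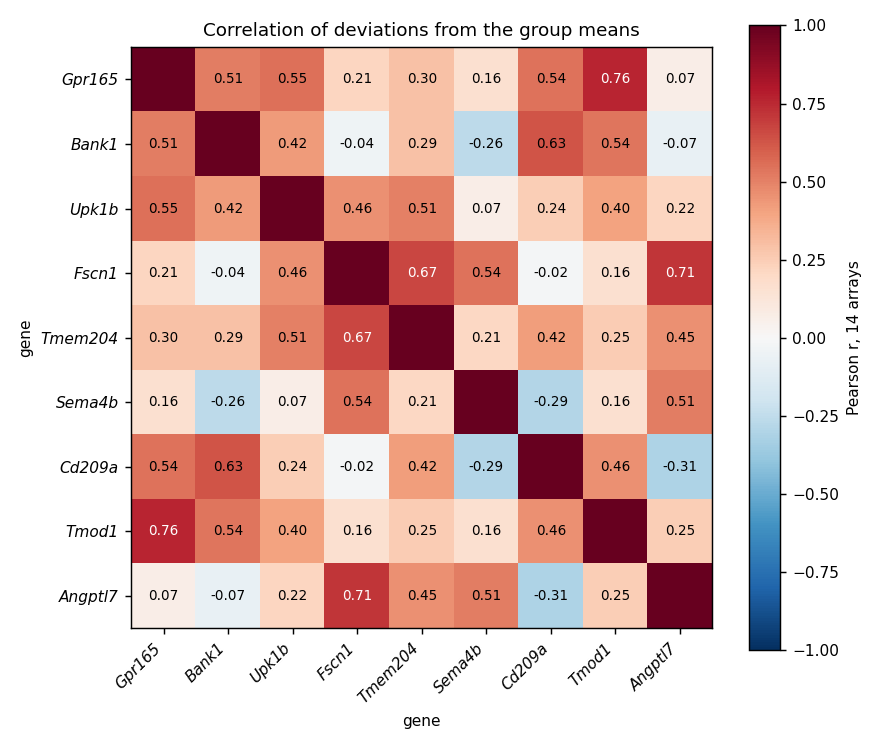
Pearson correlation of deviations from the 4 group means over 14 arrays for each pair of the 9 genes (both axes list the genes; colour and number give r). Gpr165 with Tmod1 (0.76) and Fscn1 with Angptl7 (0.71) are highest, and Cd209a with Angptl7 (-0.31) is lowest.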

How the data were processed

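The deposited values are log2 values per array row, made by the authors with RMA (oligo package, version not given) per the submitters' processing notes. RMA corrects background, aligns the arrays' distributions and summarises probes, and can compress changes of dim genes. The array medians lay between 4.93 and 5.12. Of 35556 rows, 21789 carried 1 gene symbol in the platform annotation; the row with the highest mean stood for each of 19938 genes. Group means of all 14 arrays were fitted in limma 3.58.1 under R 4.3.3 (lmFit, eBayes), with Benjamini-Hochberg adjustment over all genes and calls at an adjusted p under 0.05, and the procedure was tested on simulated data. Names of predicted genes, small RNAs and clones (1584) were left out of the ranks that chose the genes. The number of arrays limits precision. The genes and the lists of relatives, pathways and markers were chosen with earlier results of these data known. Named list genes were up to the 4 called with the smallest p, and all measured family members; for Gpr165 the 5 closest genes, for others 1. Markers given for a level near background, and Cldn5, Flt3, Ccr2, Itga4, F10, Cd79b, Pax5, Syk, Itpr2, Blnk, Lpar6, Aldoc, Plxnb1, Plxnb2, Plxnb3 and Plxnd1, were named after their values were seen. Same-letter arrays did not deviate together, so letters were not used as pairs.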

Additional observations from a re-analysis of the deposited data

How the results depend on the processing

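The 9 genes' changes and genotype averages, 27 results, were recomputed under 22 settings, giving 585 values. Of these, 582 kept their side of the threshold, and no called value changed sign. The count includes changes in the genotype that chose a gene, which were called by that choice. It also includes fits without an array of the other genotype, which leave the size of a change as it was. It is therefore no measure of robustness. Tmod1 in TLR4-/- stayed lower, but its change moved to -0.69 with the mean of both rows. The 3 values that crossed the threshold were of Angptl7 in wild type, which became significant with array weights (-0.65, adjusted p = 0.0393), with the array letter as a replicate block (-0.64, adjusted p = 0.04) and without wild-type sham array C (-0.83, adjusted p = 0.0204); the cause was not tested. Uncalled genotype averages near 0 changed sign for Bank1, Upk1b and Tmod1, and so did the Cd209a change in TLR4-/-. Genes called after I/R numbered 1628 in TLR4-/-, with a leave-one-out range of 970 (without sham array A) to 1888, and 1071 without I/R array C. Between genotypes 5 genes were called on average, with a leave-one-out range of 2 to 7. The difference of changes had 0 calls, and 1 (Ifitm3) without wild-type sham array C, a range of 0 to 1. With the replicate block the calls were 1522 in TLR4-/-, 2037 in wild type, 2 between genotypes and 0 for the difference of changes. Letters showed no pairing: the correlation of same-letter deviations ran from -0.06 to 0.14, and 2 of 6 I/R arrays correlated best with their own letter. Fitting only the compared groups gives no value for the genotype average or the difference of changes. Values near background, as for Tmod1, Angptl7 and Cd209a after I/R, can understate a change.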

Other observations

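Further marker lists were measured for cells that a microglial sort could carry along. Of 10 neuronal markers 2 had means above background, and the list mean ran from 4.26 to 4.48 in TLR4-/- I/R and 4.39 to 4.57 in TLR4-/- sham, and from 4.09 to 4.41 in wild-type I/R and 4.29 to 4.49 in wild-type sham. Of 8 oligodendrocyte markers 6 were above background, with list means of 5.48 to 5.70 in TLR4-/- I/R and 5.44 to 5.62 in TLR4-/- sham, and of 5.34 to 5.55 in wild-type I/R and 5.36 to 5.65 in wild-type sham. None of these 18 markers was called after I/R in either genotype (limma). Of 8 astrocyte markers 3 were above background, and the glutamate transporter Slc1a3 fell by 0.75 in TLR4-/- (SE 0.15, limma adjusted p = 0.00377) and by 0.72 in wild type (SE 0.13, limma adjusted p = 0.00134). The other astrocyte markers were not called with all arrays, and the list had median changes of 0.10 in TLR4-/- and -0.15 in wild type. Without wild-type sham array C, Aldoc was called lower in wild type (-1.79, limma adjusted p = 0.0413). Of 10 T and NK cell markers 3 were above background, and Klrd1 was the one called, in wild type.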
